A study of Ovis aries with 48 samples.

Results

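The lncRNAs described here were the 131 rows, of 2973 in the long non-coding RNA tables, whose mean value was at least 5 over the 32 libraries of 1 cohort of sheep and also at least 5 over the 16 libraries of another. The rule used the measured level: 139 rows met it, and 8 of them were set aside by name. Another 19 rows reached a mean of 5 in the first cohort only and 16 in the second only. At the edge of the rule, LOC105616575 (mean 5.03 in the first cohort and 5.60 in the second), LOC105604950 (5.03 and 5.16) and LOC105603994 (5.08 and 5.21) were just inside. LOC105616340 (4.97 and 5.32), LOC105612743 (4.92 and 5.23) and LOC114115115 (8.48 and 4.85) were just outside.

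The 48 small RNA libraries came from the fat of 16 female sheep, Ovis aries. In the T cohort, 8 sheep each gave subcutaneous, visceral, epicardial and perirenal fat: 4 were controls, and 4 were prenatal T sheep, whose mothers had received testosterone propionate in corn oil into the muscle, 100 mg or about 1.2 mg per kg 2 times a week, from day 30 to 90 of gestation. In the BPA cohort, 8 other sheep each gave subcutaneous and visceral fat: 4 were controls whose mothers had daily injections of corn oil under the skin, and 4 had mothers given bisphenol A (BPA) in corn oil by the same route at 0.5 mg per kg per day over the same days. This made 12 groups of 4 libraries, 1 library per sheep and depot; the labels give no age, and no vehicle for the T cohort's controls. All sheep were housed together on a similar maintenance diet.

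Long non-coding RNAs are transcripts without a known protein product. Some are the primary transcripts of microRNAs, which are short RNAs that repress messenger RNAs, and others carry snoRNAs, which guide the chemical modification of ribosomal RNA, in their introns. Small RNA libraries capture short RNA molecules, so that a row of these tables counts short reads that lie on the annotated lncRNA and not its full-length transcript. Subcutaneous, visceral, epicardial and perirenal fat are distinct depots, and perirenal fat of sheep is known for a large brown-fat share around birth.

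Libraries held 260804 to 1742991 reads over the 4 RNA classes deposited (microRNA, snoRNA, snRNA and lncRNA), of which lncRNA rows took 28452 to 198905. The 131 lncRNAs held 45.4% to 86.7% of the lncRNA reads (median 56.7%), and LOC114118399, 1 of the 8 set aside, held 10.5% to 53.3%. The labels number the libraries, and the numbers fall into an early set, up to 48, and a later set, from 81 upwards. The later set held 0 to 4 of the 4 libraries of a group, 13 of 32 for prenatal T and its controls and 11 of 16 for BPA and its controls. No marker of fat cells could be checked, since the tables hold no messenger RNA.

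All 131 carried LOC numbers in place of gene symbols, so that none could be matched to lists of snoRNA host genes, imprinted lncRNAs, nuclear lncRNAs, 7SK-like RNAs or microRNA host genes by name. RefSeq's gene table (ARS-UI_Ramb_v3.0) listed 61 of them: 56 as lncRNA, 3 as protein-coding, 1 as pseudogene and 1 as transcribed pseudogene. Each of the 61 was counted once, by the first kind it held in this order: 4 held a microRNA gene, 12 at least 1 snoRNA gene, 2 an snRNA gene, 5 a tRNA gene and 38 none. LOC105602212, counted under microRNA, and LOC105607806, counted under snRNA, also hold a tRNA gene. A protein-coding gene overlapped 22 of the 61. These genes can share reads with the lncRNA row, since it is not given whether reads were assigned by strand.

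Reads were few for most members and concentrated in a handful. The mean value in the T cohort reached 1000 in 9 lncRNAs and 100 in 25, and stayed under 10 in 39. The 5 highest held 70.4% of all reads of the 131, and the first alone 21.8%. These levels are not per length. LOC105608013, annotated as a pseudogene that overlaps KCNRG, had the highest mean: 10739 among T libraries and 9164 among BPA libraries. LOC105611269, which holds MIR181A-2 and overlaps NR6A1, followed with 9607 and 12296. LOC105602212, which holds MIR125B and a tRNA gene, had 4685 and 2656. LOC105606870 had 4608 and 6175, and LOC114112794 had 3776 and 3807; RefSeq's table lists neither.

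In most lncRNAs that hold snoRNAs, the reads of the row were close in number to those of the snoRNAs inside it. Reads were recovered from the deposited values in each table apart, and the snoRNA rows were summed over the genes inside each lncRNA. For 8 of the 12 the sum was at least 94% of the lncRNA's reads over the 48 libraries, although single libraries went down to 50% in LOC101110918 and 84.8% in LOC114110614. In LOC105609544 the 3 snoRNAs LOC114117661, LOC114117663 and LOC114117662 came to 66389 of 66491 reads, 99.8%, and to between 98.9% and 100.0% in every library. LOC114116957 had 43976 reads, and its snoRNA LOC114117067 had 43898. LOC101102543 and its 4 snoRNAs had equal reads in 33 of 48 libraries, and LOC114118756 and its 1 snoRNA in 31. The other 4 had lower shares: 60.3% in LOC105603013, 52.2% in LOC101116687, 28.5% in LOC114115312 and 0.3% in LOC105602999.

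The microRNA holders were less uniform. MIR181A-2 had 93.2% as many reads as LOC105611269 (89% to 96.2% by library), and MIR221 had 78.3% as many as LOC105605445 (64.2% to 88.3%). MIR125B, by contrast, had 1852092 reads against 197831 for LOC105602212, and MIR29A 144520 against 553 for LOC106991099, so that these 2 rows count few of the reads given to the microRNA inside them. Of the 2 snRNA holders, LOC105607806 had 1953 reads and its snRNA 1, and LOC114118734 had 779 and its snRNA 3.

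**Figure D1:**
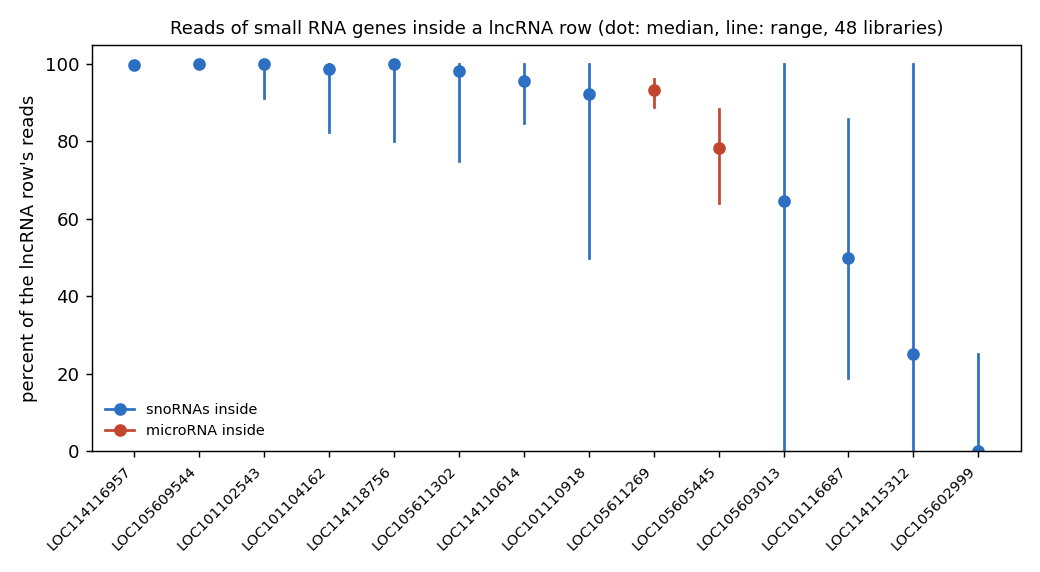
Reads of the snoRNA or microRNA genes inside a lncRNA as a percent of that lncRNA's reads (vertical axis, linear), for the 12 lncRNAs that hold snoRNAs and 2 that hold a microRNA; dots are medians and lines run from the lowest to the highest of 48 libraries. In LOC114116957 and LOC105609544 the snoRNAs matched the row in all libraries, between 98.6% and 100.0%, and in LOC105602999 the median was 0.

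Each lncRNA was then set against every single row of the microRNA, snoRNA and snRNA tables, and 8 had a row whose reads differed by under 10% (summed absolute difference over libraries). RefSeq places 5 of these rows inside the lncRNA. The other 3 lncRNAs are missing from its table. LOC114114068 had 991 reads and MIR200C, a microRNA of epithelial and mesothelial cells, 979, with equal reads in 38 of 48 libraries. LOC114108991 had 2757 reads and the snoRNA LOC114109250 had 2728, with equal reads in 24. LOC105616344 had 7439 and the snoRNA LOC114117064 had 6770. This search was made after the values were seen, and likeness of reads does not place a gene inside another. LOC114114014 and LOC105612393 also had nearly the same counts, 2165 and 2139 reads in all, unequal in 11 libraries and by at most 9 reads, and are counted below as 2 rows.

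The spread of the 131 was described on log2(value + 1), with values rescaled over the libraries of a cohort by median of ratios, because the deposited scale had been set separately in each depot. Within a group of 4 sheep the SD, pooled over the 12 groups, had a median of 0.76 log2 units. It was smallest in LOC105606870 (0.29), LOC114112944 (0.29) and LOC101104162 (0.32), and largest in LOC106990385 (1.81), LOC114113912 (1.49) and LOC105604459 (1.47). In the T cohort the gap between the highest and lowest of the 4 depot means ranged from 0.19 to 4.0, with a median of 0.87. The absolute difference between prenatal T and control, over all depots, had a median of 0.26 and a highest value of 1.51. A range over 4 means is larger than a difference of 2 even without any effect, so the sums of squares were set beside their degrees of freedom.

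Depot took a median 21% of the sum of squares of a lncRNA in the T cohort, against 9.7% of the degrees of freedom. Treatment took 3.4% against 3.2%, and the interaction of depot and treatment 6.5% against 9.7%. Differences between sheep of 1 treatment took 21.1% against 19.4%, and the rest 40.5% against 58.1%. In the BPA cohort the medians were 12.6% for depot and 3.6% for treatment, each with 6.7% of the degrees of freedom, and 37.3% for sheep, with 6 of 15 degrees of freedom. Depot took over 50% in 9 lncRNAs among the T sheep and in 10 among the BPA sheep. LOC105609544 (68.1%), LOC114115026 (66.6%) and LOC105602359 (65.4%) led in the T cohort, and LOC105603235 (73.5%), LOC114112794 (69.0%) and LOC105605445 (67.8%) in the BPA cohort. Treatment took over 50% in none of the 131 in the T cohort, where LOC114114881 had the highest share (25.7%), and in 1 in the BPA cohort, LOC114109081 (56%). These shares are descriptions with no test, and the named lncRNAs were picked by them. Without any effect and with independent libraries, the mean share equals the share of the degrees of freedom. The median lies below it, most so for a source of 1 degree of freedom such as treatment. A median at that share thus does not show that treatment had no effect.

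**Figure D2:**
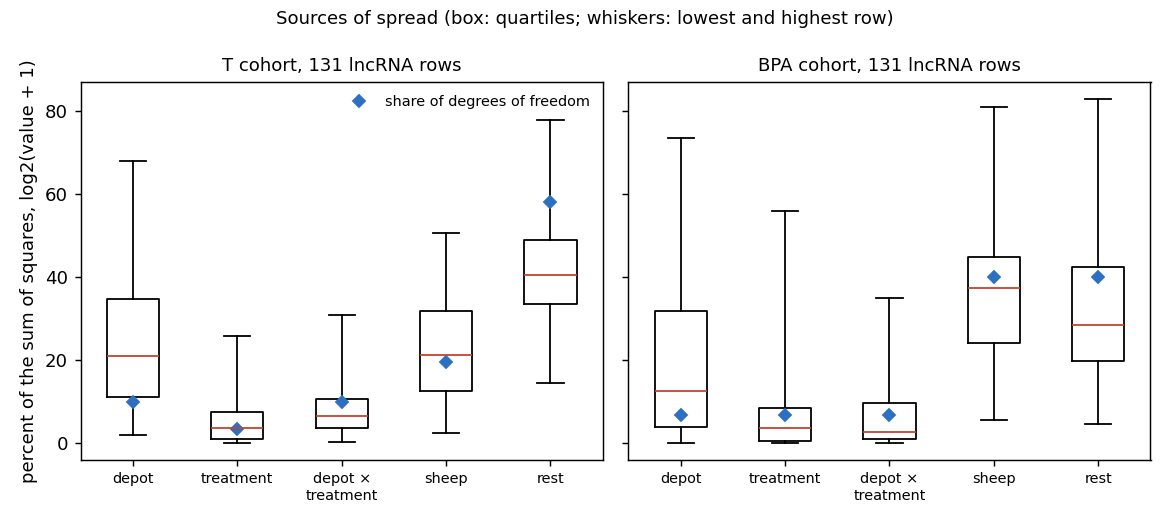
Percent of the sum of squares on log2(value + 1) (vertical axis) by source for the 131 lncRNAs, T cohort on the left and BPA cohort on the right; boxes are quartiles, whiskers reach the lowest and highest lncRNA, and diamonds give the share of the degrees of freedom. The depot box of the T cohort lies mostly above its diamond (median 21% against 9.7%), and the treatment median lies at its diamond (3.4% against 3.2%).

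Differences between the library sets were called in part of the 131 and are given first, because results on depots rest on these libraries. Sets were compared within groups, on deposited values, by a term in a limma fit of all groups of a cohort over the lncRNA rows with a mean of at least 5; the comparison was added after the values were seen. Rows with a Benjamini-Hochberg adjusted p under 0.05 were called. In the T cohort 38 of 131 were called, 19 higher in the later set and 19 lower, against 29.1% of all rows tested (12% and 17.1%). With the filter at a mean of 5, most rows tested are the lncRNAs described, 131 of 158 in this fit. Their share and that of all rows are thus bound to lie close. For the BPA cohort 7 of 131 were called, 6 higher and 1 lower, against 5.16% (4.52% and 0.645%). All 7 were also called in the T cohort, and 28 of the 38 had the same direction in the BPA cohort. The count of 38 fell to 18 without sheep 098, and the count of 7 rose to 11 without sheep 918. The sets cannot be read as batches of a known kind, since the labels give only numbers.

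LOC106990385 separated the sets with no overlap. In the T cohort it ran from 20.2 to 77.6 in 19 early libraries and from 394 to 1312 in 13 later ones, and in the BPA cohort from 44.97 to 83.6 in 5 and from 564 to 1795 in 11. The log2 difference was 4.22 (SE 0.22, limma adjusted p = 3.24e-16) and 4.04 (SE 0.25, limma adjusted p = 3.57e-10). Its epicardial difference against the other 3 depots, 2.07 (limma adjusted p = 0.0388), was 0.14 with a term for the set (limma adjusted p = 0.758). LOC105616344, the row close to the snoRNA LOC114117064, was higher by 2.89 and 3.17, LOC101116687 by 2.66 and 2.82, and LOC114116957 by 1.89 and 1.02. LOC105611302 was higher by 1.43 and 1.61. The last 3 hold snoRNA genes. LOC105604676 was lower, with differences of -1.02 and -0.97, and its BPA call was lost without sheep 902 (limma adjusted p = 0.147) or 908 (0.104).

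Some members were called by set in the T cohort and not in the BPA cohort, a difference between cohorts that was not tested. LOC105611804, which holds a tRNA gene and overlaps RGS13, a regulator of G-protein signalling, had a median of 48.4 in early and 7.66 in later libraries (-2.24, SE 0.36, limma adjusted p = 2.99e-05). LOC105602212 had medians of 5675 and 1957 (-1.74, SE 0.32, limma adjusted p = 0.000191). Its medians in the BPA cohort were 2615 and 2333, and the call was missed (limma adjusted p = 0.0915). The share of snoRNA reads moved with the set: 0.28% to 1.34% in early and 1.37% to 2.42% in later libraries of the T cohort, and 0.91% to 1.10% and 1.51% to 3% in the BPA cohort. Its part in these differences was not tested.

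**Figure D3:**
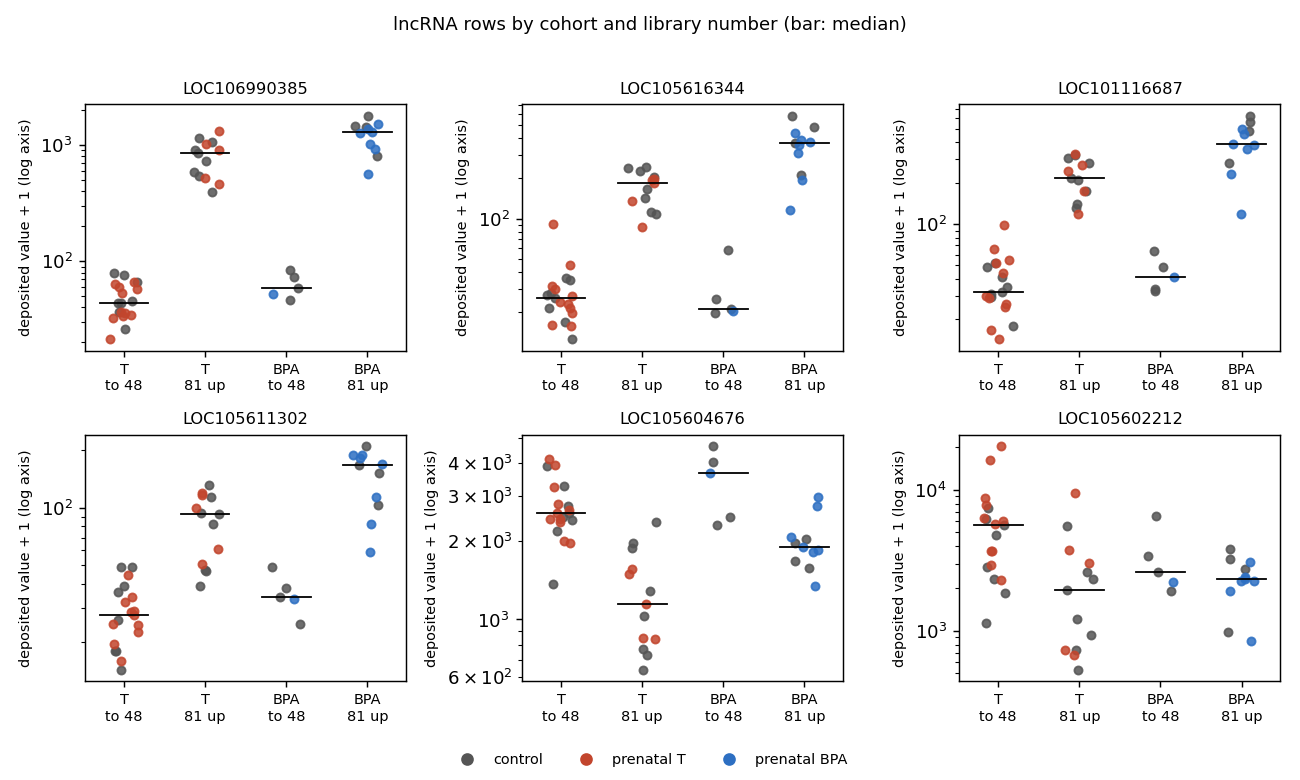
Deposited value plus 1 (log axis) of 6 lncRNAs by cohort and library number, to 48 or from 81 upwards; points are libraries, coloured by treatment, and bars are medians. LOC106990385 lies at 83.6 or lower in all early and at 394 or higher in all later libraries of both cohorts, while LOC105602212 overlaps between the sets.

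Depots were compared in the T cohort, each against the mean of the other 3, with limma over all 32 libraries and Benjamini-Hochberg adjustment over the 151 lncRNA rows with a mean of at least 5. Rows were called as above. Fold changes are on the scale of log2(value + 1), which understates changes of low rows, and 1 of the 131 was not tested in these fits. The 4 comparisons share their libraries, so that a lncRNA high in 1 depot is pushed lower in the rest. Together they called 53 lncRNAs, and the share of all rows called in at least 1 comparison is not given here. In bulk tissue, fewer cells of a type and less RNA per cell cannot be told apart.

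In subcutaneous fat 10 of 130 were called, 8 higher and 2 lower, where 10.6% of all rows tested were called (7.28% higher and 3.31% lower). Scaled to the total reads of the 4 classes, which moved the median of all rows tested from -0.09 to -0.32, the split was 6 higher and 12 lower. On the deposited scale it was 6 and 13, and in edgeR 7 and 7. With a term for library set it was 12 and 11, and 9 of the 10 were still called. The count fell to 6 without sheep 132 and also to 6 without sheep 233.

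LOC105605445, which holds MIR221, was the leading subcutaneous lncRNA. Its rescaled value ran from 2986 to 5840 (median 3802) in 8 subcutaneous libraries, from 577 to 2205 (median 1329) in visceral, from 654 to 1733 (median 1422) in epicardial and from 387 to 2032 (median 1235) in perirenal fat. The lowest subcutaneous library lay above all 24 others. The log2 difference was 1.72 (SE 0.23, limma adjusted p = 4.78e-06). MIR221 itself, in the microRNA table, differed by 1.81 (SE 0.17, limma adjusted p = 6.1e-10 over the microRNAs). These are not independent, as the read counts of the 2 rows given above lie close together.

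LOC105609544, the row matched by its 3 snoRNAs, was high in subcutaneous and low in perirenal fat. Values ran from 1395 to 2454 (median 1828) in subcutaneous, 513 to 1599 (median 1295) in visceral, 370 to 1278 (median 877) in epicardial and 381 to 919 (median 473) in perirenal libraries. No perirenal library reached the lowest subcutaneous one, while visceral overlapped with both. The difference was 1.24 for subcutaneous fat (SE 0.20, limma adjusted p = 3.4e-05) and -1.19 for perirenal fat (SE 0.20, limma adjusted p = 6.95e-05). In the snoRNA table, which is scaled apart, LOC114117661, LOC114117663 and LOC114117662 differed by less, by -0.65, -0.59 and 0.09 in perirenal fat (limma adjusted p = 0.000471, 0.0164 and 0.676 over the snoRNAs).

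The 2 lncRNAs called lower in subcutaneous fat than in the other depots were LOC114109082 and LOC114112617. LOC114109082 ran from 5.34 to 26.2 (median 9.86) in subcutaneous fat and had medians of 35.8 in visceral, 85.7 in epicardial and 14.9 in perirenal fat. Its difference was -1.71 (SE 0.39, limma adjusted p = 0.0025), and the perirenal range, 5.16 to 137, covered the whole subcutaneous one. LOC114112617 differed by -0.91 (SE 0.28, limma adjusted p = 0.0394), a call lost without any 1 of 6 of the 8 sheep (098, 131, 132, 185, 233 or 48, adjusted p 0.0539 to 0.0985) and with no filter on low values (0.194).

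**Figure D4:**
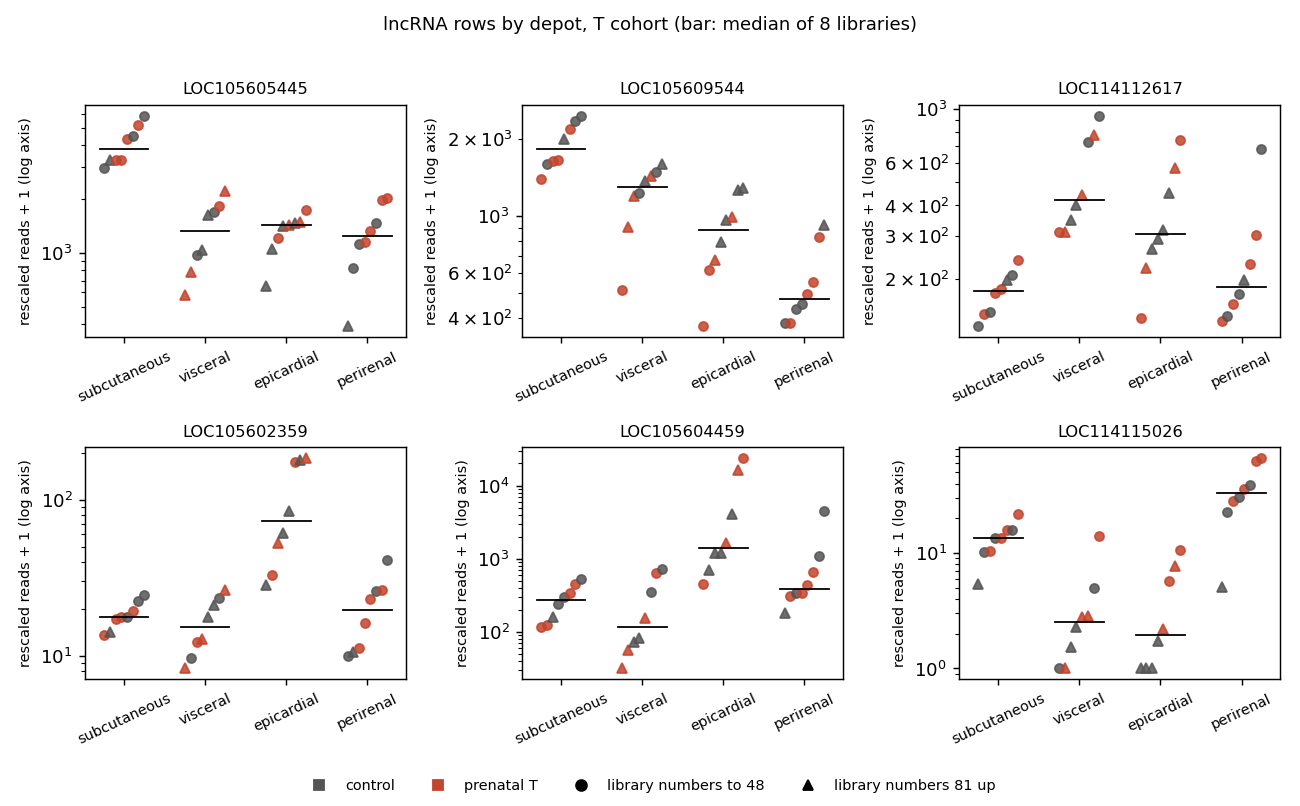
Rescaled reads plus 1 (log axis) of 6 lncRNAs in the 32 libraries of the T cohort by depot; grey is control and red prenatal T, circles are library numbers to 48 and triangles from 81 upwards, and bars are medians of 8 libraries. LOC105605445 is highest in all 8 subcutaneous libraries, LOC105602359 and LOC105604459 are highest in epicardial fat with overlap, and LOC114115026 is at 0 in 3 epicardial and 2 visceral libraries.

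In visceral fat 10 of 130 were called, 4 higher and 6 lower, against 8.61% of all rows tested (3.31% and 5.3%). With the sheep as a block the count rose to 16, 5 higher and 11 lower, and held all 10. The split turned to 12 higher and 3 lower scaled to total reads (median of all rows 0.36 against -0.10) and to 2 and 26 as deposited. A term for library set left 6, all among the 10. The later set holds 1 subcutaneous and 1 perirenal library of this cohort, so depot contrasts within it rest on 1 library for these depots. Left-out sheep gave 4 (131), 6 (132), 5 (185), 3 (201) and 6 (48).

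LOC101102543, whose reads equalled those of its 4 snoRNAs in most libraries, ran from 43.3 to 110.9 (median 54.4) in visceral fat, with medians of 34.8 in subcutaneous, 36.9 in epicardial and 20.05 in perirenal fat. It was higher by 1.07 (SE 0.25, limma adjusted p = 0.00639), and by 0.40 within the later set, where subcutaneous and perirenal fat have 1 library each. LOC114112617 ran from 309 to 935 (median 419) in visceral and from 126.3 to 238 (median 177) in subcutaneous fat, with no overlap between these 2 depots. Its medians were 304 in epicardial and 183 in perirenal fat. The visceral difference was 1.07 (SE 0.28, limma adjusted p = 0.0152), and without sheep 131 or 48 the adjusted p was 0.066 or 0.0724, and 0.0622 on the deposited scale.

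Among the lower visceral lncRNAs, LOC114115026 had a median of 1.54, from 0 to 12.9, and differed by -1.93 (SE 0.38, limma adjusted p = 0.000864; 0.0765 in edgeR). LOC114117599 ran from 24.3 to 103.6 (median 42.8) against medians of 66.3 in subcutaneous, 115 in epicardial and 89.6 in perirenal fat. Its difference of -0.88 (SE 0.22, limma adjusted p = 0.0114) was -0.40 scaled to total reads (0.13), and the call was also lost without sheep 185 (0.0764) or 201 (0.0701). All 12 lncRNAs that hold snoRNAs were tested here, 2 of them were called higher and none lower. Their median difference was 0.44, beside -0.10 for all rows tested, and 0.12 beside -0.09 with a term for library set.

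Markers of epithelial and mesothelial cells, of which MIR200A, MIR200B and MIR200C could be measured, 3 of 5 on the list, moved with depot. In CPM of the library's microRNA reads, their sum ran from 4.49 to 408 in visceral, 10.1 to 44.3 in subcutaneous, 61.6 to 178 in epicardial and 19.7 to 200.1 in perirenal libraries of the T cohort. The visceral range thus covered the others. Medians in controls and prenatal T sheep were 129 and 220 in visceral and 15.5 and 21.7 in subcutaneous fat. They were 88.1 and 89.7 in epicardial and 29.4 and 27.2 in perirenal fat. MIR200C itself differed by 0.12 between visceral fat and the other depots (limma adjusted p = 0.813). No marker of the list was at 0 throughout a group, and their part in the result was not tested.

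In epicardial fat 13 of 130 were called, 10 higher and 3 lower, against 11.9% of all rows tested (9.27% and 2.65%). Scaled to total reads the split was 8 and 4, and with a term for library set 6 and 7, with 7 of the 13 shared. All 4 control libraries of this depot are in the later set. Within the early set 4 were called, 1 of them among the 13. The only epicardial libraries of the early set are those of prenatal T sheep 185 and 255. Within the later set subcutaneous and perirenal fat have 1 library each, and no count is given. The count was 7 without sheep 201 and 6 without sheep 233 or 48.

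LOC105602359 was the leading epicardial lncRNA. It ran from 27.2 to 184 (median 71.8) in epicardial fat, 12.6 to 23.5 in subcutaneous, 7.30 to 25.3 in visceral and 9.02 to 39.9 in perirenal fat. The epicardial range overlapped only the perirenal one, and the difference was 2.20 (SE 0.32, limma adjusted p = 8.09e-06). It kept its size with a term for library set (2.24, limma adjusted p = 4.17e-05).

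LOC105604459, which lies over MIB1, a ubiquitin ligase of Notch signalling, had the largest difference, 3.13 (SE 0.60, limma adjusted p = 0.000331). Epicardial values ran from 450 to 23842 with a median of 1411, and 2 prenatal T libraries held the top, 16345 in sheep 48 and 23842 in sheep 185. Medians were 272 in subcutaneous, 118 in visceral and 392 in perirenal fat, and 1 perirenal library, of sheep 132, reached 4451. Its call was lost within the early set (3.26, limma adjusted p = 0.056).

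MIR133, the only one of 8 striated muscle microRNAs on the list that the tables hold, moved with LOC105604459. It was higher in epicardial fat by 2.90 (SE 0.52, limma adjusted p = 7.46e-05). Its level ran from 372 to 25850 CPM in epicardial libraries, 70.6 to 1591 in visceral, 132 to 881 in subcutaneous and 193 to 2573 in perirenal libraries of the T cohort. It was at 0 in no group. MIR133 was also the small RNA row closest in reads to LOC105604459, with 48466 against 67953 over the 48 libraries and no library equal. RefSeq's table places no microRNA inside LOC105604459. The part of muscle in the result was not tested.

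LOC105606870 and LOC114115026 were lowest in epicardial fat. LOC105606870, the lncRNA of least spread, ran from 1700 to 3601 (median 3032) there, against 5019 to 7048 in subcutaneous fat, 2693 to 6137 in visceral and 2971 to 5739 in perirenal fat. The epicardial difference was -0.81 (SE 0.13, limma adjusted p = 6.69e-05). It was of like size within the early set (-0.77, limma adjusted p = 0.086), where fewer libraries left it above the threshold. Within the later set, with 1 subcutaneous and 1 perirenal library, it was -0.90. LOC114115026 was at 0 in 3 of 4 epicardial controls, and the last had 0.73. The prenatal T sheep had 1.18 to 9.68. A value of 0 at these depths does not show that the RNA was absent. Its fitted difference was -1.95 (SE 0.38, limma adjusted p = 0.000331), and -1.14 within the early set (limma adjusted p = 0.297).

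Perirenal fat had the most calls, 37 of 130, with 20 higher and 17 lower, against 31.1% of all rows tested (18.5% and 12.6%). The 130 are most of the 151 rows tested, so their share was bound to lie near that of all rows. The split depended on the scale: 11 higher and 25 lower scaled to total reads, where the median of all rows was -0.08 in place of 0.16, and 46 and 6 as deposited. A term for library set left 20 calls, of which 18 were among the 37. All perirenal libraries but 1 are in the early set, and within that set 14 were called, all among the 37. The count was 21 without sheep 131, 15 without 201, 18 without 233 and 23 without 48.

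LOC114115026 was the leading perirenal lncRNA, in contrast to its low epicardial and visceral values. It ran from 4.13 to 65.9 (median 32.4) in perirenal and from 4.37 to 20.8 (median 12.6) in subcutaneous fat, and 7 of 8 perirenal libraries lay above all subcutaneous ones. The exception was sheep 098, the 1 perirenal library of the later set. The difference was 2.77 (SE 0.38, limma adjusted p = 5.62e-06), and 2.23 with a term for library set (limma adjusted p = 4.4e-05). LOC114111513 ran from 6.89 to 126.9 (median 33.0) in perirenal fat against medians of 2.99 in subcutaneous, 2.81 in visceral and 2.65 in epicardial fat. It was higher by 2.66 (SE 0.44, limma adjusted p = 6.95e-05), although 1 epicardial library reached 58.6.

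LOC114108991, the row matched in reads by the snoRNA LOC114109250, was lower in perirenal fat. It ran from 8.78 to 41.3 (median 16.03) there, with medians of 36.6 in subcutaneous, 45.96 in visceral and 78.0 in epicardial fat. The difference was -1.43 (SE 0.28, limma adjusted p = 0.000539). On the scale of the snoRNA table, LOC114109250 differed by -0.72 (SE 0.20, limma adjusted p = 0.0106). In the early set the share of snoRNA reads was 0.28% to 0.58% in perirenal and 0.30% to 0.425% in epicardial libraries. It was 0.74% to 1.34% in subcutaneous and 0.91% to 1.10% in visceral ones, and its part in what follows was not tested. Of the 12 lncRNAs that hold snoRNAs, 6 were called lower in perirenal fat and none higher. Their median difference was -0.53, beside 0.16 for all rows tested. With a term for library set 3 were called lower, with medians of -0.26 and 0.13, and on the deposited scale 3 lower and 1 higher (-0.16 and 0.52). Scaled to total reads 6 were called lower (-0.81 and -0.08). In the snoRNA table, on its own scale, the tested snoRNAs inside these 6 had smaller or opposite differences. LOC114116957 differed by -1.11 (limma adjusted p = 0.0175) and its snoRNA LOC114117067 by -0.34 (0.287). LOC105611302 differed by -1.18 (limma adjusted p = 0.00452) and LOC114116285, inside it, by -0.50 (0.104). LOC114118756, not called at 0.27, holds LOC114118772, which was higher by 1.04 (limma adjusted p = 0.00358). Of the 4 microRNA holders, LOC105605445 was called lower and none higher. Among the 38 in RefSeq's table with no small RNA gene, 37 were tested, 5 were called higher and 1 lower.

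The smooth muscle microRNA MIR143, 1 of 2 on its list, moved with perirenal fat: 37170 to 175300 CPM in perirenal libraries, and 13860 to 91240 in epicardial, 21070 to 73830 in subcutaneous and 19380 to 153700 in visceral ones of the T cohort. Its part in the perirenal calls was not tested.

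Visceral and subcutaneous fat were sampled in both cohorts, which share no sheep, so that the contrast was made 2 times in separate animals. In the T cohort 9 of 115 were called, 3 higher in visceral fat and 6 lower, against 11.1% of all rows tested (4.76% and 6.35%). With the sheep as a block the count was 15, 5 higher and 10 lower. Among the BPA cohort's sheep 18 of 131 were called, 6 higher and 12 lower, against 14.7% (6.41% and 8.33%). Scaled to total reads the splits turned to 16 higher and 3 lower in the T cohort (median of all rows 0.46 against -0.01) and to 17 and 5 in the BPA cohort (0.10 against -0.14). As deposited the T cohort gave 2 and 10, and edgeR gave 7 and 6 in the BPA cohort, which fell to 9 calls without sheep 924. The sum of MIR200A, MIR200B and MIR200C moved with this contrast in the BPA cohort, at 210 to 720 CPM in visceral and 29.0 to 332 CPM in subcutaneous libraries; its part in the calls was not tested. MIR200C alone differed by -0.94 in that cohort (limma adjusted p = 0.0948).

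Of 115 lncRNAs tested in both cohorts, 87, or 75.7%, differed in the same direction. All 9 called in the T cohort had the same direction in the BPA cohort. Of the 18 called in the BPA cohort, 17 were tested in the T cohort and 13 had the same direction there. Called in both were 5 lncRNAs, 55.6% of the T cohort's calls and 27.8% of the BPA cohort's. Neither this overlap nor the shared direction is given here for all rows, so they cannot be read as particular to these lncRNAs. Across the 115, Pearson's r of the log2 differences was 0.36 and Spearman's rho 0.43, as a description over lncRNAs that share libraries.

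LOC114112617 was higher in visceral fat in both cohorts. Among BPA-cohort libraries it ran from 474 to 2157 (median 937) in visceral and from 145 to 932 (median 206) in subcutaneous fat. The difference was 1.53 in the T cohort (SE 0.28, limma adjusted p = 0.0018) and 1.92 in the BPA cohort (SE 0.36, limma adjusted p = 0.00188). LOC114115287 was higher by 0.93 in the T cohort (limma adjusted p = 0.0295) and by 0.84 in the BPA cohort (limma adjusted p = 0.0169).

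LOC114115026, LOC105605445 and LOC105603235 were lower in visceral fat in both. LOC114115026 ran from 0.92 to 5.50 in visceral and 4.17 to 40.04 in subcutaneous libraries of the BPA cohort. Its differences were -2.15 in the T cohort (SE 0.48, limma adjusted p = 0.00689) and -2.0 in the BPA cohort (SE 0.38, limma adjusted p = 0.00188), the latter -1.22 within the later set (limma adjusted p = 0.0923). LOC105605445 ran from 1083 to 1990 and from 1900 to 4039 in the BPA cohort. Its differences were -1.65 (SE 0.29, limma adjusted p = 0.0018) and -0.91 (SE 0.18, limma adjusted p = 0.00208). MIR221 differed by -1.21 and -0.77 in the same contrasts (limma adjusted p = 0.000148 and 0.000165). LOC105603235 differed by -1.31 and -0.85 (limma adjusted p = 0.0376 and 0.00838). With a term for library set, 4 of the 9 calls of the T cohort were kept and 16 of the 18 of the BPA cohort. Lost in the T cohort were LOC114115287 and LOC114115026 (both limma adjusted p = 0.0503) and LOC105603235 (0.127).

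**Figure D5:**
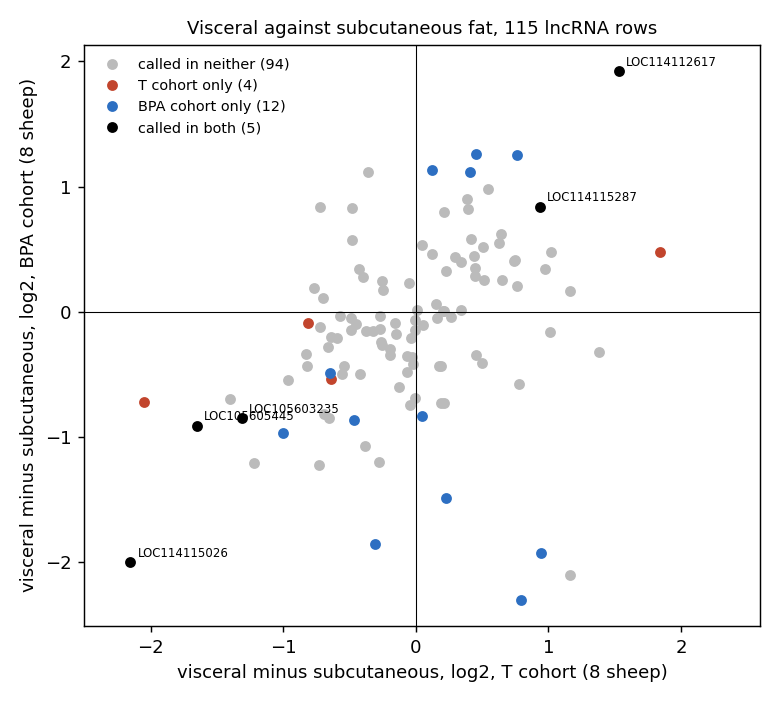
Visceral minus subcutaneous difference on log2(value + 1) in the T cohort (horizontal axis) and the BPA cohort (vertical axis), 8 sheep each, for 115 lncRNAs tested in both; colour marks where each was called. The 5 called in both, in black, lie in the lower left and upper right, and 4 lncRNAs called in the BPA cohort lie on the opposite side of 0 in the T cohort.

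Other lncRNAs were called in 1 cohort. LOC105603102 was lower in visceral fat of the T cohort, with a difference of -2.05 (SE 0.37, limma adjusted p = 0.0018), with 17.8 to 79.3 in visceral and 91.7 to 319 in subcutaneous libraries, which did not overlap. Its ranges in the BPA cohort, 29.8 to 109.6 and 73.8 to 234, overlapped, and it was not called (-0.72, SE 0.29, limma adjusted p = 0.0906). LOC114109082 was higher in visceral fat of the T cohort by 1.84 (SE 0.38, limma adjusted p = 0.00439). Its medians in the BPA cohort were 38.2 in visceral and 25.3 in subcutaneous fat. LOC114112794, among the 5 highest lncRNAs, was higher by 1.26 in the BPA cohort (SE 0.20, limma adjusted p = 0.000574), from 3686 to 9676 in visceral and 1191 to 2886 in subcutaneous libraries. Its visceral libraries in the T cohort, 1333 to 7101, covered the subcutaneous range, 2390 to 4157. Whether these differences themselves differ between cohorts was not tested.

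Treatment was compared within each depot on the deposited values, 4 sheep against 4. No lncRNA was called by limma in any of the 6 comparisons, against 0% of all rows tested in each, and edgeR called none of the 131 either. At an unadjusted p under 0.05, limma gave 4 of 113 for prenatal T in subcutaneous fat, 4 of 112 in visceral, 17 of 121 in epicardial and 2 of 129 in perirenal fat. For BPA it gave 5 of 120 in subcutaneous fat and 7 in visceral fat. The corresponding counts in edgeR were 4, 7, 25, 5, 8 and 9. The share of all rows at this unadjusted threshold is not given here, so these counts cannot be read as particular to the 131. In epicardial fat the later set holds all 4 controls and 2 of 4 prenatal T libraries. Fitted without a filter on low values, limma called 6 for prenatal T in epicardial fat (LOC105602212, LOC105603743, LOC105604459, LOC106990385, LOC114111513 and LOC114115026) and LOC106990385 for BPA in visceral fat, where 0.583% and 0.0981% of all rows tested were called. With the filter and a term for library set, LOC106990385 moved from -2.25 to 0.28 (limma adjusted p = 0.835) under prenatal T and from 1.97 to -0.01 (limma adjusted p = 0.998) under BPA, and LOC114111513 from 2.09 to 0.40 (limma adjusted p = 0.818).

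The intervals left room for differences that were not detected. The median 95% interval reached 0.87 log2 units to either side for prenatal T in subcutaneous fat, 1.26 in visceral, 0.99 in epicardial and 1.15 in perirenal fat, and 0.89 and 0.87 for BPA in subcutaneous and visceral fat. The whole interval lay within 1 log2 unit of 0 for 36, 3, 14 and 6 lncRNAs for prenatal T and for 29 and 29 for BPA, in the same order.

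The lncRNAs named from here on for treatment were picked by smallest p. A lack of overlap between 4 and 4 sheep follows in part from that choice. The share of all rows that separate in this way is not given here. The strongest epicardial lncRNAs under prenatal T were LOC114116384 and LOC105607806. LOC114116384 had 11.3, 15.5, 17.3 and 20.6 in the controls and 2.63, 5.06, 7.30 and 7.59 in prenatal T sheep, with no overlap. The difference was -1.42 (SE 0.39, limma adjusted p = 0.185). LOC105607806, which holds an snRNA and a tRNA gene, had 67.3, 84.8, 135 and 207 in the controls and 13.8, 16.1, 40.7 and 63.3 in prenatal T sheep. It differed by -1.98 (SE 0.55, limma adjusted p = 0.185) here and by -1.66 in subcutaneous fat (SE 0.62, limma adjusted p = 0.999). Of the epicardial libraries, the later set holds every control and 2 of 4 prenatal T sheep. MIR150, the lymphocyte microRNA, moved with this comparison, at 6701 to 8144 CPM in epicardial controls and 2757 to 5410 in prenatal T sheep. Its part in these differences was not tested.

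In the other depots of the T cohort the leading lncRNAs had adjusted p-values near 1. LOC105611302, a row matched by its snoRNAs, had 35.3, 38.2, 48.1 and 113 in subcutaneous controls and 18.5, 21.4, 31.2 and 33.1 in prenatal T sheep (-1.01, SE 0.41, limma adjusted p = 0.999). Its highest control is the 1 library of the later set. In visceral fat LOC114109082 had 17.7 to 30.7 in controls and 29.9 to 125 in prenatal T sheep (1.34, SE 0.54, limma adjusted p = 0.665). LOC105609364 had 350 to 1173 and 32.7 to 514 (-1.87, SE 0.82, limma adjusted p = 0.665). In perirenal fat LOC105603415 had 1.99 to 6.89 in controls and 5.76 to 14.4 in prenatal T sheep (1.26, SE 0.51, limma adjusted p = 0.906). LOC105603919 had 3.09 to 15.5 and 18.1 to 28.8, with no overlap (1.19, SE 0.50, limma adjusted p = 0.906).

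The smallest adjusted p of the 6 comparisons was that of LOC105602517 for BPA in visceral fat. Controls had 36.2, 46.4, 50.6 and 57.3 and BPA sheep 9.97, 14.3, 19.9 and 21.9. The groups did not overlap in this row, which was picked by its p. The difference was -1.51 (SE 0.33, limma adjusted p = 0.113). In subcutaneous fat of the same sheep, controls had 10.1 to 67.9 and BPA sheep 6.30 to 39.1, which overlapped. LOC114116624 also did not overlap in visceral fat, with 10.04 to 14.1 in controls and 1.25 to 6.64 in BPA sheep (-1.38, SE 0.41, limma adjusted p = 0.335). The later set holds 1 of 4 controls and 3 of 4 BPA sheep here. MIR150 moved with this comparison as well, at 4407 to 5139 CPM in visceral controls and 2543 to 3933 in BPA sheep, and its part was not tested.

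In subcutaneous fat of the BPA cohort LOC101122718 had 13.1, 16, 18.6 and 21.3 in controls and 4.20, 6.96, 7.67 and 12 in BPA sheep. The groups did not overlap, and the difference was -1.12 (SE 0.36, limma adjusted p = 0.695). LOC105602212, which holds MIR125B but had far fewer reads than it over the 48 libraries, had 2764 to 6478 and 1923 to 2425. These again did not overlap (-0.79, SE 0.28, limma adjusted p = 0.695). MIR150 was at 3532 to 11700 CPM in subcutaneous controls and at 2849 to 3906 CPM in BPA sheep, and its part in these differences was not tested.

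With the depots of a sheep averaged, so that the sheep was the replicate, no lncRNA was called by limma in either cohort, against 0% of all rows tested. At an unadjusted p under 0.05 there were 12 of 131 for prenatal T and 7 of 131 for BPA, with the share of all rows again not given here. The 95% interval lay within 1 log2 unit of 0 for 76 and 75 lncRNAs. LOC114115026 was higher in prenatal T sheep by 1.22 (SE 0.32, limma adjusted p = 0.354), and LOC105602212 by 0.97 (SE 0.30, limma adjusted p = 0.354; 0.000272 with no filter on low values). With the filter and a term for library set, these differences were 1.001 and 0.684 (limma adjusted p = 0.661 for each). Both rows were also called lower in the later set of the T cohort. For BPA the leading lncRNAs were LOC114116624 (-1.13, SE 0.37, limma adjusted p = 0.755) and LOC105602517 (-1.06, SE 0.36, limma adjusted p = 0.755).

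Prenatal T and BPA had separate controls and could be set side by side. In subcutaneous fat 41.7% of the lncRNAs tested in both cohorts, 45 in number, differed from control in the same direction, and in visceral fat 62.2%, or 69. In subcutaneous fat LOC105602212 differed from control by 0.21 for prenatal T and by -0.79 for BPA. Averaged over the depots of a sheep, it differed by 0.97 and -0.44, and by 0.68 and -0.14 with a term for library set. None of these was called with the filter on low values.

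Whether a treatment effect differed between depots was tested by the interaction, and no lncRNA was called by limma in either cohort, against 0% of all rows tested. At an unadjusted p under 0.05 there were 4 of 131 in each, with the share of all rows not given here. LOC105616014 had the smallest p in the T cohort (limma adjusted p = 0.589). It had 4.43 to 9.75 in visceral controls and 2.03 to 4.67 in visceral prenatal T sheep, and 1.65 to 7.28 and 5.26 to 32.3 in epicardial fat. For BPA, LOC101122718, described above for subcutaneous fat, had 11.5 to 18.2 in visceral controls and 12.5 to 17.1 in visceral BPA sheep. The interaction was 1.19 (SE 0.43, limma adjusted p = 0.711).

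Lastly, the 131 moved together in a few groups of rows. Deviations from the group means of log2(value + 1) over 48 libraries, which share libraries and depth, had a median Pearson's r of -0.002 over 8515 pairs, and 38 pairs exceeded 0.8. With deviations taken within library set as well, 25 pairs exceeded 0.8. LOC106990385 and LOC105616344 had an r of 0.95 (Spearman's rho 0.94), which was 0.69 within sets, and LOC106990385 and LOC114116957 had 0.88 and 0.36. LOC105602212 and LOC105612547 kept theirs more nearly, at 0.90 and 0.84 within sets, as did LOC114110111 and LOC105612547 at 0.93 and 0.88.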

How the data were processed

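Values for the 48 libraries of ovine fat came from 8 tables, 1 per cohort and RNA class. The submitters' processing notes list cutadapt 3.2, STAR 2.6.0c and featureCounts 1.6.1. Which genome build was used is not given in these sources. The deposited values are a signal: the authors divided reads by a size factor per library, and multiplying back gave a whole number for 100% of values (tolerance 1e-05). The factors equal the median of ratios over the 8 libraries of a depot within each class, so the deposited scale differs between depots.

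From these, log2(value + 1) was tested in limma 3.58.1 (R 4.3.3) with a mean-spread trend, over all lncRNA rows with a mean of at least 5, with Benjamini-Hochberg adjustment over these rows and a threshold of 0.05. Treatment and library set comparisons used deposited values, and depot comparisons used values rescaled by median of ratios over the libraries compared. Alternatives were a pseudocount of 5, no filter, scaling to total reads, a library set term, edgeR 4.0.16 on recovered reads, the sheep as block, the deposited scale, each sheep left out and, chosen after seeing the data, each library set alone. The fits were tested on simulated data.

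The depots of 1 sheep pair the libraries, per the labels. Within sheep, the median correlation of deviations was 0.066 for T (22 of 48 pairs exceeded 0.1) and 0.129 for BPA (4 of 8), against -0.008 and -0.046 between sheep. Between libraries of different sheep in the same library set the medians were 0.065 for T and 0.049 for BPA. In T, likeness within a sheep was thus no larger than likeness within a set. Among 72 pairs of libraries of 1 group, the lowest chi-square per degree of freedom was 5.5, so none was a copy of another.

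The members and lists were chosen with earlier results of these data known. Named were the 5 highest lncRNAs, the 2 of smallest p per treatment comparison, the 2 called of smallest p per direction and depot comparison, the 1 of smallest p per interaction, the 3 of smallest and of largest spread, and 3 on each side of the rule's threshold. Others were chosen after their values were seen. Of the marker microRNAs for blood cells, liver and endothelium (0 of 5, 0 of 1 and 0 of 1) none was in the tables.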

Additional observations from a re-analysis of the deposited data

Results flagged for a closer look

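Among the 14 lncRNAs named for a depot difference, each group of 4 libraries was tested for a library that stands apart by Dixon's ratio. This flagged 8 of 168 groups, where chance flags about 1 in 20. Values in this paragraph are as deposited, and so differ from the rescaled values given above for depots. LOC105605445 was at 1103 in visceral fat of BPA sheep 910, and at 1576 to 1584 in the other 3. LOC105606870 was at 8930 in subcutaneous fat of BPA sheep 918 (others 5001 to 5089) and at 4117 in perirenal fat of prenatal T sheep 255 (others 6038 to 6526). LOC114108991 was at 89.1 in visceral fat of control sheep 902 of the BPA cohort (others 35.3 to 37.3) and at 46.3 in perirenal fat of control sheep 098 (others 15.5 to 18.2). LOC105603102 was at 16.98 in that same perirenal library (others 137 to 203), which is the only perirenal one of the later set, and at 13.6 in epicardial fat of control sheep 131 (others 41.1 to 46.1). LOC114115026 was at 0.82 in epicardial fat of control sheep 098, where the other 3 were at 0.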

How the results depend on the processing

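Counts of lncRNAs called depended on the setting, and no lncRNA reversed its direction in the comparison it was named for under any setting run. In other comparisons, differences that were not called could change sign with a library set term, as for LOC106990385 in visceral fat under BPA. With no filter on low values, which adds many rows to the adjustment, the depot counts were 6 in subcutaneous, 4 in visceral, 5 in epicardial and 15 in perirenal fat and 11 for visceral against subcutaneous fat in the BPA cohort. Of all rows tested, 0.649%, 0.305%, 0.382%, 2.06% and 0.908% were called, in the same order. For the other settings in this paragraph the shares of all rows are not given. The fits without a filter gave 6 for prenatal T in epicardial fat, 1 for BPA in visceral fat, and 1 each for prenatal T and BPA over the depots of a sheep. The shares of all rows tested were 0.583%, 0.0981%, 0.0382% and 0.124%. Scaling to total reads gave 18 in subcutaneous fat and 19 for visceral against subcutaneous fat in the T cohort. A library set term gave 23 in subcutaneous, 6 in visceral and 20 in perirenal fat. The deposited scale gave 19 in subcutaneous and 28 in visceral fat. With the sheep as a replicate block, 16 were called in visceral fat and 15 for visceral against subcutaneous fat in the T cohort; the block moved no other count by over 1.5 times. Within the early set, fewer libraries gave 20 in subcutaneous, 4 in epicardial and 14 in perirenal fat. Within the later set there were 6 for visceral against subcutaneous fat in the BPA cohort. Depot contrasts of the T cohort within the later set rest on 1 subcutaneous and 1 perirenal library, and their counts are not given. The early set also gave 12 in visceral fat and 9 for visceral against subcutaneous fat in the T cohort. Treatment fits within a set, where enough libraries were left, called none. The remaining depot and treatment fits by set could not be made for lack of libraries. Apart from these constructions, the cause was not tested.

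With each sheep left out in turn, the counts ranged from 6 to 13 in subcutaneous, 3 to 13 in visceral, 6 to 18 in epicardial and 15 to 42 in perirenal fat. For visceral against subcutaneous fat they ranged from 6 to 13 in the T cohort and 9 to 25 in the BPA cohort, and for the library sets from 18 to 41 and 6 to 11. For treatment and the interactions they stayed at 0, with 4 or fewer sheep a group. Rows of few reads limit what these depths can show.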
